A study of Mus musculus with 15 samples.

Results

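Pools of mouse oocytes are described here for 10 transcripts: S100a8, S100a9, Cd14, Tyrobp, Ctss, Ctsc, Lyz2, Saa3 and Slfn4, which are known chiefly from leukocytes and inflamed tissue, and Ovgp1, which is known from the oviduct. They were selected on their array intensities, for higher values in adult in vivo matured oocytes, and every probe set annotated to exactly 1 of these symbols was taken. This gave 12 probe sets for 10 of 18193 genes, 3 of them for Ctsc, where the probe set with the highest mean was used. The choice was made on adult in vivo values, so every difference that involves those arrays is given as a description without a test. The rule does not say against which arrays those values were higher, so arrays of the other groups may have served there. It names no comparison among the d26 and d20 groups, and these are the ones tested.

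All oocytes came from female mice of the hybrid strain B6D2F1. The groups were adult in vivo MII (3 arrays, mice of 7 to 8 weeks), d26 in vivo MII (2 arrays, mice of 26 days, called peripubertal by the submitters), d20 in vitro MII (3 arrays, mice of 20 days, called prepubertal), d26 in vitro MII (3 arrays), adult in vitro MII (2 arrays) and adult GV oocytes (2 arrays). MII is metaphase II, the stage at which an egg is ovulated, and GV is the immature stage with an intact germinal vesicle. All females received pregnant mare serum gonadotropin (PMSG), which stimulates follicle growth, and GV oocytes were taken from the ovary 48 h later. In vitro MII oocytes were such GV oocytes cultured for 16 h, whereas in vivo MII oocytes were collected after a further injection of human chorionic gonadotropin (hCG). All groups, GV included, were treated with hyaluronidase to strip the cumulus, a layer of somatic cells. Each array held the poly(A) RNA of a pool of 150 oocytes after amplification in a pair of cycles, so the number of foreign cells and the RNA in each cell cannot be told apart. No label says which pools came from separate mice, so p-values measure the spread between these arrays, which may be technical.

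Neutrophils, monocytes and macrophages carry a shared set of transcripts for sensing bacteria, signalling through immune receptors and degrading protein in lysosomes. At ovulation the follicle wall is remodelled in a reaction that resembles inflammation and recruits leukocytes, and the egg then passes into the oviduct, whose secretory cells release oviductal glycoprotein around it. Oocytes matured in a dish meet neither the ruptured follicle nor the oviduct.

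The label of oocyte held in every group. The mean of 12 oocyte markers reached 10.93 on the normalized log2 scale in adult in vivo arrays, 11.23 in d26 in vivo arrays and 11.19 in the in vitro arrays, and in GV arrays it was at least 11.67. Gdf9, an oocyte growth factor, averaged 13.32 ± 0.37 in adult in vivo MII (SD, n = 3). All 10 transcripts, by contrast, lay far lower, with means over the 15 arrays between 1.75 and 4.62, where the median of all normalized values was 3.61. A set of 4 arrays was dim, with 2615 to 3042 probe sets above an intensity of 200 against 4882 to 9819 in the others. They were adult in vivo replicate 1, d26 in vitro replicates 2 and 3, and adult in vitro replicate 2. The ratio of 3' to 5' Gapdh probe sets, a sign of how much of the RNA's length was copied, was 82.3 and 68.0 in the d26 in vivo arrays and 2.27 to 26.8 elsewhere. The 5' signal itself was low in the d26 in vivo arrays, at 0.76 and 3.99, under the array medians of 8.84 and 16.2. It was also low in d26 in vitro replicates 2 and 3, at 0.895 and 1.89, and in adult in vitro replicate 1, at 3.96. The ratios of these arrays were 16.5, 26.8 and 20.6. A ratio over so low a signal is imprecise, and its part in the differences below was not tested.

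Promoters of 8 of the 10 genes could be read from RefSeq's table for GRCm38.p6, as 250 bases before and 50 after the transcript start. They are shown because many myeloid genes are known to carry sites for PU.1, a transcription factor of the Ets family. One form of these sites, AGGAAGT, is called the core here, and other forms were not searched for. Its letters, read on either strand, stood in 5 of the 8 windows (S100a8, Ctss, Ctsc, Lyz2 and Slfn4) and in 9.35% of 32851 promoters of the same length. Shown are 3 windows with the core (S100a8 chr3:90668821-90669120, plus strand, Ctss chr3:95526536-95526835, plus strand, and Lyz2 chr10:117282223-117282522, minus strand) and that of Ovgp1 without it (chr3:105973552-105973851, plus strand). Each is written 5' to 3' on the gene's strand, and capitals mark the core, which reads ACTTCCT where it lies on the other strand.
S100a8: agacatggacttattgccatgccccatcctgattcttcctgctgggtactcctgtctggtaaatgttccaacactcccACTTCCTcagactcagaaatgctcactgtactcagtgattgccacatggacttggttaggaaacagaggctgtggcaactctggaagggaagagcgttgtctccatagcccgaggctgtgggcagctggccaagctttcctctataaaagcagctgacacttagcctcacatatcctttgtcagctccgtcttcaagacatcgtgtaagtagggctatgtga
Ctss: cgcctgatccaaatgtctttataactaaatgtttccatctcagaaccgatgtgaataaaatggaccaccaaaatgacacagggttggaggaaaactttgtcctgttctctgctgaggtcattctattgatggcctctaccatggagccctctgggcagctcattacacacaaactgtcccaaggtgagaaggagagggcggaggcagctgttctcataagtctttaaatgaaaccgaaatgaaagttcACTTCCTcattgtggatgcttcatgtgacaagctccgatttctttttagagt
Lyz2: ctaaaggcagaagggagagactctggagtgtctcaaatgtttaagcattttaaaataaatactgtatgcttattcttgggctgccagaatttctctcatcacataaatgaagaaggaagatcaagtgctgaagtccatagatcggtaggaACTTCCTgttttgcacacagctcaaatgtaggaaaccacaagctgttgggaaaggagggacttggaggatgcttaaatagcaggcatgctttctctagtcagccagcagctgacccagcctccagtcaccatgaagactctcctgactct
Ovgp1: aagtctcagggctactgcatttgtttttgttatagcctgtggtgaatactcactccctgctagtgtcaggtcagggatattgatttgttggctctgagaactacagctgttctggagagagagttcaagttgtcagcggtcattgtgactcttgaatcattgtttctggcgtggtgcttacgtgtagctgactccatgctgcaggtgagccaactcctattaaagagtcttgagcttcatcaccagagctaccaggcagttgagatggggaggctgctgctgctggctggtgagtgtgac
The core began 172 bases before the transcript start in S100a8, 100 bases before it in Lyz2 and 2 bases before it in Ctss. In Ctsc it began 151 bases before the start and in Slfn4 73 bases before it. TATAAA on either strand stood in 4 of the 8 windows (S100a8, S100a9, Ctss and Slfn4), against 13.6% of all promoters. TTNNGNAA, the core of sites for C/EBP factors of the myeloid lineage, stood in 5 of the 8 (S100a8, S100a9, Saa3, Lyz2 and Slfn4), against 40.7% of all promoters. None of these motifs contains another. They were chosen with the sequences in view, and a match is a description of letters only.

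At 26 days, where the transcripts could be tested, none of the 10 passed the test between d26 in vivo and d26 in vitro MII (limma, adjusted p below 0.05 over 45037 probe sets). The background was low: 7 probe sets, 0.0155% of all, were called higher and none lower, while 2844 had an unadjusted p below 0.05. Of the 10 differences 8 were positive (7 above the median of all probe sets on the deposited intensities or with median scaling), with a median of 0.86 on the log2 scale against 0.01 over all probe sets. Among the 10, 1 had an unadjusted p below 0.05 (Cd14), against 6.31% of all probe sets. Both d26 in vivo arrays lay above all 3 d26 in vitro arrays for 2 of the 10 (Ctss and Cd14), against 9.65% of all probe sets.

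Cd14, the co-receptor for bacterial lipopolysaccharide on monocytes and macrophages, had the highest of these differences. It read 5.29 and 4.18 in d26 in vivo arrays, against 2.01, 2.12 and 2.30 in d26 in vitro arrays. The difference was 2.59 ± 1.00 on the log2 scale (SE, 95% interval 0.48 to 4.70, limma unadjusted p = 0.019, adjusted p = 0.728). Adult in vivo arrays read 5.62, 3.59 and 4.11, so the ovulated pools of both ages overlapped, with a mean of 4.44 ± 1.06 in adult in vivo MII (SD, n = 3) and 4.73 ± 0.79 in d26 in vivo MII (n = 2). The 10 other arrays stayed at or below 2.30. Cd14 was thus the one transcript of the 10 for which all 5 in vivo arrays exceeded all 10 in vitro and GV arrays. That order was held by 42 probe sets, 0.0933% of all, but 3 of the 5 arrays served in the choice, so it is a description only. Taken alone, both d26 in vivo arrays exceeded the same 10 arrays for Cd14, as for 617 probe sets, 1.37% of all. The order of all 5 in vivo arrays also held on the intensities as deposited. Adult in vivo arrays read 21.8, 19.3 and 21.8 there and d26 in vivo arrays 27.2 and 23.6, against at most 8.65 elsewhere, in GV replicate 1.

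Ctss encodes cathepsin S, a lysosomal protease of antigen-presenting cells. It read 4.68 and 4.09 in d26 in vivo arrays, against 1.46, 3.79 and 2.48 in d26 in vitro arrays. The groups did not overlap, yet adult in vitro replicate 1, at 5.41, was above both d26 in vivo arrays. The difference of 1.81 ± 0.87 (SE, 95% interval -0.01 to 3.63) did not pass the test (limma adjusted p = 0.789).

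Saa3, an acute phase protein made by macrophages and epithelia in inflammation, read 5.16 and 4.61 in d26 in vivo arrays, against 5.0, 2.45 and 1.33 in d26 in vitro arrays. One d26 in vitro array lay between both in vivo arrays. The difference was 1.96 ± 0.98 (SE, 95% interval -0.10 to 4.02, limma adjusted p = 0.802). Ovgp1, the oviductal glycoprotein, read 5.09 and 4.18 in d26 in vivo arrays, against 4.34, 4.10 and 2.62 in d26 in vitro arrays. These groups overlapped, and the difference was 0.95 ± 0.85 (SE, limma adjusted p = 0.869).

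Slfn4, a Schlafen gene of myeloid cells, pointed the other way at 26 days. It read 1.59 and 0.30 in d26 in vivo arrays, against 4.09, 4.82 and 0.60 in d26 in vitro arrays, a difference of -2.23 ± 1.32 (SE, limma adjusted p = 0.822). Lyz2, lysozyme of macrophages and neutrophils, differed by 0.01 ± 1.04 (SE, 95% interval -2.17 to 2.19, limma adjusted p = 0.999). The other 4 differences ran between -0.58 for S100a8 and 0.95 for S100a9. No interval but that of Cd14 left out 0, and the intervals were wide: the median SE at the level of these transcripts was 1.16, against 0.36 in the brightest 10% of probe sets.

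**Figure D1:**
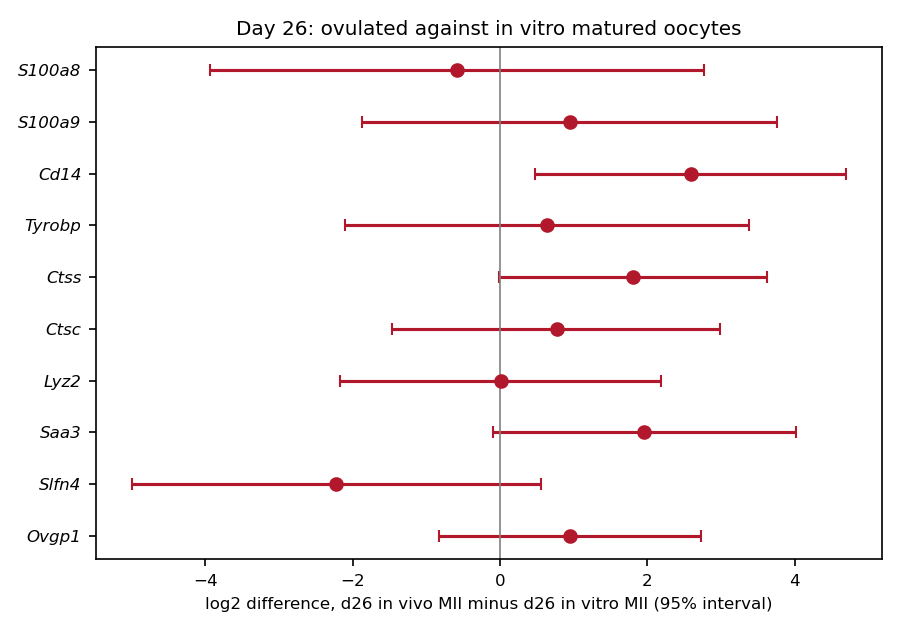
Log2 difference of d26 in vivo MII (2 arrays) minus d26 in vitro MII (3 arrays) for the 10 transcripts, with points for the fitted difference and bars for its 95% interval. The bar of Cd14, from 0.48 to 4.70, lies wholly above 0, and none of the 10 passed the adjusted threshold.

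Seen on their own, the d26 in vivo arrays differed from each other. The counts below were added after the data were seen. Some of the 10 in vitro and GV arrays may have served in the choice, so these counts are a description only. In replicate 1, 5 of the 10 (Saa3, Ctsc, Lyz2, Cd14 and Ovgp1) exceeded all 10 in vitro and GV arrays, against 7.29% of all probe sets. In replicate 2, 1 did (Cd14), against 7.21% of all probe sets. On the deposited intensities the counts were 3 (Ctsc, Lyz2 and Cd14, against 2.08% of all probe sets) and 1 (Cd14, against 11.2%). Lyz2 shows the contrast: it read 5.69 in replicate 1 and 2.78 in replicate 2, where the 10 in vitro and GV arrays ran up to 4.44. Ctsc, cathepsin C, which activates the serine proteases of neutrophil granules, read 5.17 and 2.97 there, with in vitro and GV arrays up to 5.03. Replicate 1 was the higher of the pair for 8 of the 10, against 51.1% of all probe sets, and on the deposited intensities for 6 of the 10, against 23.6%. S100a9 and Tyrobp were the exceptions on the normalized scale, with S100a9 at -0.26 in replicate 1 and 3.48 in replicate 2.

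**Figure D2:**
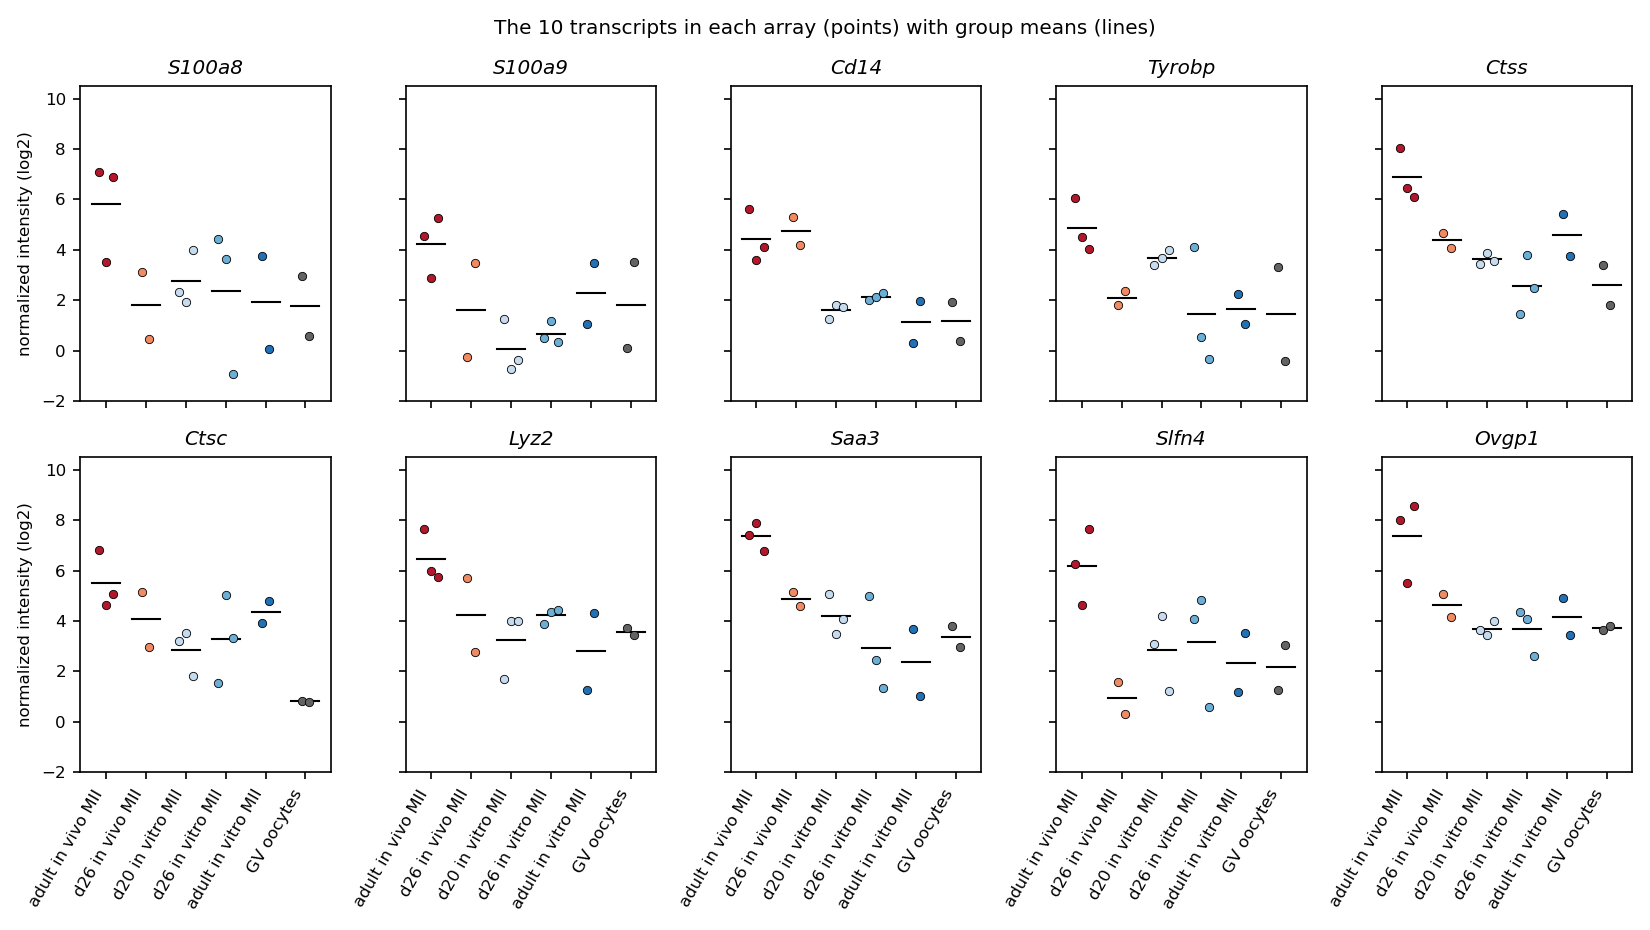
Normalized log2 intensity of the 10 transcripts, with 1 point per array and a line at each group's mean. The 3 adult in vivo arrays lie above all 12 others for Saa3, Ctss, Lyz2 and Ovgp1, and Cd14 is high in all 5 in vivo arrays.

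Between the in vitro groups of 26 and 20 days, none of the 10 passed the test, and no probe set did (limma, 0% called). An unadjusted p below 0.05 was found for none of the 10, and for 4208 probe sets, 9.34% of all. The differences ran from -2.23 ± 1.17 for Tyrobp (SE, adjusted p = 0.567) to 0.98 for Lyz2, with a median of 0.16. Tyrobp encodes DAP12, the signalling adaptor of many myeloid receptors. It read 4.13, 0.55 and -0.31 in d26 in vitro arrays, against 3.39, 3.67 and 4.01 in d20 in vitro arrays. The low values were those of d26 in vitro replicates 2 and 3, both dim. Cd14 did not overlap between these groups, with 2.01 to 2.30 in d26 in vitro arrays and 1.24 to 1.80 in d20 in vitro arrays, an order held by 7.76% of all probe sets.

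The adult in vivo values, on which the choice was made, stood as follows. Against GV oocytes, the adult in vivo differences ran from 2.43 for S100a9 to 4.69 for Ctsc, with a median of 3.80 against 0.19 over all probe sets. The adult in vivo arrays lay above both GV arrays for 9 of the 10 (S100a9 overlapped), against 23% of all probe sets. For scale, 6.95% of all probe sets were called higher and 6.03% lower in this comparison, and nothing is read from it about the 10. Against adult in vitro MII the differences ran from 1.14 for Ctsc to 5.0 for Saa3. The adult in vivo arrays lay above both adult in vitro arrays for 7 of the 10, as for 9.73% of all probe sets. A single probe set, 0.00222% of all, was called higher there. Against d26 in vivo MII the differences ran from -0.29 for Cd14 to 5.24 for Slfn4. The adult in vivo arrays lay above both d26 in vivo arrays for 7 of the 10, as for 9.65% of all probe sets. No probe set was called in that comparison (limma, 1931 had an unadjusted p below 0.05).

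Saa3, Ctss, Lyz2 and Ovgp1 had all 3 adult in vivo arrays above all 12 others, as did 166 probe sets, 0.369% of all. Just inside that order lay Lyz2, whose lowest adult in vivo array read 5.73 where the highest of the others, d26 in vivo replicate 1, read 5.69. Just outside it lay Tyrobp, with 4.05 in its lowest adult in vivo array and 4.13 in d26 in vitro replicate 1.

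S100a8 and S100a9 encode the subunits of calprotectin, the most abundant cytosolic protein of neutrophils. S100a8 read 7.10, 3.50 and 6.89 in adult in vivo arrays, and 3.13 and 0.48 in d26 in vivo arrays. The in vitro and GV arrays ran from -0.91 to 4.42, so adult in vivo replicate 2 lay within their range. S100a9 read 4.56, 2.90 and 5.25 in adult in vivo arrays, and the 10 in vitro and GV arrays ran from -0.73 to 3.52. For both subunits replicate 2 was the low adult in vivo array. The order of group means of S100a9 was adult in vivo at 4.24 ± 1.21 (SD, n = 3), adult in vitro at 2.27 ± 1.70 (n = 2), GV at 1.81 ± 2.43 (n = 2), d26 in vivo at 1.61 ± 2.65 (n = 2), d26 in vitro at 0.67 ± 0.44 (n = 3) and d20 in vitro at 0.05 ± 1.06 (n = 3). Neighbours in that order overlapped in every case.

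Tyrobp read 6.06, 4.53 and 4.05 in adult in vivo arrays, and 1.83 and 2.36 in d26 in vivo arrays. Both d26 in vivo arrays were below all 3 d20 in vitro arrays. In the 10 in vitro and GV arrays Tyrobp ran from -0.40 to 4.13, a spread wider than that of the adult in vivo arrays.

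Among the lysosomal proteins, Ctss read 8.06, 6.45 and 6.11 in adult in vivo arrays. The mean was 6.87 ± 1.04 in adult in vivo MII (SD, n = 3), against 4.59 ± 1.17 in adult in vitro MII (n = 2) and 2.61 ± 1.12 in GV oocytes (n = 2). Ctsc read 6.82, 4.63 and 5.07 in adult in vivo arrays, against 0.84 and 0.80 in GV arrays, and 3.94 and 4.79 in adult in vitro arrays. Its adult in vitro arrays overlapped with the adult in vivo ones, which no other of these lysosomal transcripts did. The other 2 Ctsc probe sets did not follow this one, with means of 0.30 ± 1.37 and 2.33 ± 2.53 in adult in vivo MII (SD, n = 3), and 0.60 ± 1.16 and 2.48 ± 0.15 in GV oocytes (n = 2). Probe sets of Ctsc thus disagreed. Lyz2 read 7.67, 5.99 and 5.73 in adult in vivo arrays, against 3.71 and 3.46 in GV arrays.

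Lyz1, the lysozyme of Paneth cells in the gut, is a near-identical copy of Lyz2, and cross-hybridization between the copies cannot be told apart here. Its probe set 1436996_x_at read 9.93, 9.17 and 8.64 in adult in vivo arrays, 6.21 and 2.35 in d26 in vivo arrays, and at most 3.09 in the 10 in vitro and GV arrays. The suffix x marks probes that match more than 1 transcript. At 26 days the difference was 4.34 ± 1.39 (SE, 95% interval 1.42 to 7.27) and did not pass the test (limma adjusted p = 0.615). As with Lyz2, d26 in vivo replicate 1 was the higher of the pair. Probe set 1439426_x_at had the same order of in vivo arrays. The third Lyz1 probe set, 1450822_at, averaged 2.19 in adult in vivo MII, against 1.46 in GV oocytes and 3.31 in adult in vitro MII, so the probe sets of Lyz1 disagreed.

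**Figure D3:**
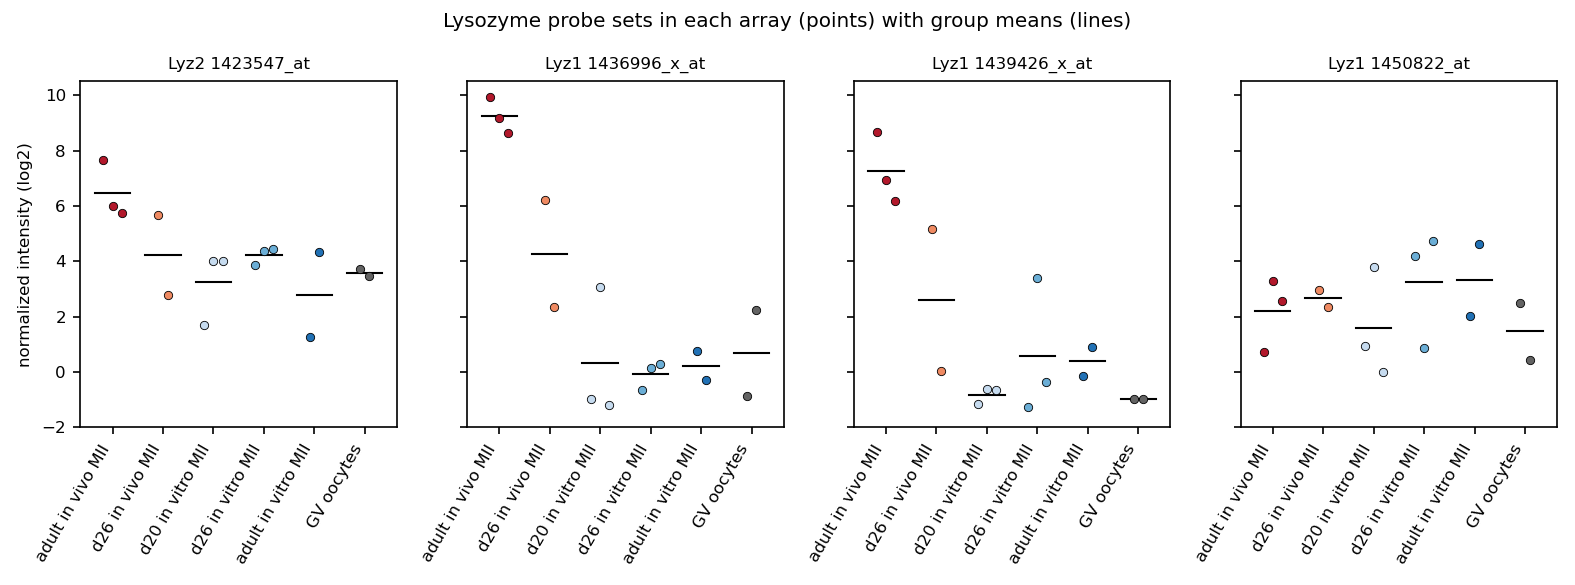
Normalized log2 intensity of the Lyz2 probe set and the 3 Lyz1 probe sets, with 1 point per array and a line at each group's mean. Probe set 1436996_x_at reads 8.64 to 9.93 in adult in vivo arrays, and probe set 1450822_at shows no such difference.

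Saa3 read 7.40, 7.90 and 6.79 in adult in vivo arrays. Group means were 7.36 ± 0.55 in adult in vivo MII (SD, n = 3), 4.89 ± 0.39 in d26 in vivo MII (n = 2), 4.22 ± 0.79 in d20 in vitro MII (n = 3), 2.92 ± 1.88 in d26 in vitro MII (n = 3), 2.37 ± 1.88 in adult in vitro MII (n = 2) and 3.38 ± 0.59 in GV oocytes (n = 2). Both in vivo means headed that list, and the arrays of the 3 in vitro groups overlapped. Slfn4 read 6.25, 4.63 and 7.66 in adult in vivo arrays. Its d26 in vivo mean of 0.94 ± 0.91 (n = 2) was the lowest of the 6 groups, where Cd14 had its highest.

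Ovgp1 read 8.02, 5.50 and 8.55 in adult in vivo arrays. All other groups averaged 3.69 to 4.64, with 4.64 ± 0.64 in d26 in vivo MII (SD, n = 2) and 3.73 ± 0.11 in GV oocytes (n = 2). Its probe set, like that of S100a8, carries the suffix s, which marks probes shared by several transcripts.

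The 3 adult in vivo arrays did not agree on which was highest, and their order depended on the scale. After normalization replicate 1, the dim array, was highest for 6 of the 10 (S100a8, Cd14, Tyrobp, Ctss, Ctsc and Lyz2). On the deposited intensities it was highest for Cd14 alone, and replicate 3 was highest for 5 (S100a8, S100a9, Ctsc, Slfn4 and Ovgp1). Ovgp1 read 86.9, 70.1 and 607 as deposited, and S100a8 read 47.1, 18.2 and 175. Slfn4 read 29.0, 38.4 and 318, again with replicate 3 apart. Ctsc, at 39.8, 38.2 and 42.4, and Cd14 hardly varied on that scale. S100a8, S100a9, Slfn4 and Ovgp1 spanned 2.35 to 3.60 on the normalized log2 scale and 1.94 to 3.45 as deposited. Cd14, Tyrobp, Ctss, Ctsc and Lyz2 spanned 1.94 to 2.20 after normalization and 0.15 to 0.78 as deposited. Saa3 did the reverse, at 1.10 and 2.77.

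**Figure D4:**
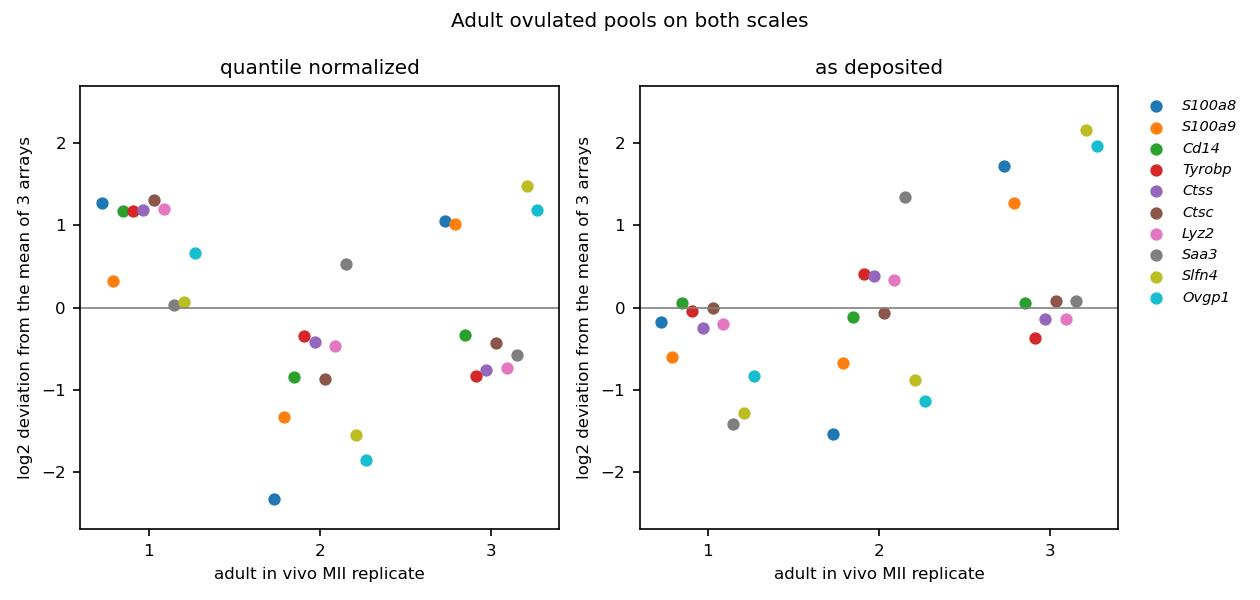
Deviation of each transcript from its mean over the 3 adult in vivo arrays, in log2 units, after quantile normalization on the left and as deposited on the right, with 1 colour per transcript. S100a8, S100a9, Slfn4 and Ovgp1 are above 0 in replicate 3 and below 0 in replicate 2 on both scales.

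Over the 15 arrays the 45 pairs of transcripts had correlations between 0.13 (S100a9 with Tyrobp) and 0.84 (S100a8 with Ovgp1), with a median r of 0.57. The choice of the transcripts raises these values, and they share the arrays' brightness, so they are a description only. Similar genes were sought among 12022 others, those whose mean over the 15 arrays lay in the upper 50% of probe sets. That mean includes the adult in vivo arrays, and genes below the cut were not compared. Among those compared, Adgre1, the F4/80 antigen of macrophages, was most like the mean of the 10. Its r was 0.93 over 15 arrays and 0.68 over the 12 arrays without adult in vivo MII. It averaged 6.17 ± 0.31 in adult in vivo MII (SD, n = 3), 4.67 ± 0.19 in d26 in vivo MII (n = 2) and 4.08 ± 0.37 in GV oocytes (n = 2). The in vitro means of Adgre1 were 4.77 ± 0.11 at d20 (n = 3), above d26 in vivo MII, 4.13 ± 0.49 at d26 (n = 3) and 4.07 ± 0.03 in adults (n = 2). Next came Ncf1, a subunit of the phagocyte NADPH oxidase, with r = 0.85, then Gfpt2 at 0.85 and Cxcl2, a chemokine for neutrophils, at 0.84. Over the 12 arrays without adult in vivo MII, r was 0.53 for Ncf1, 0.68 for Gfpt2 and 0.42 for Cxcl2. Eomes, Gpaa1, Arhgef7, Foxq1, Tysnd1 and Gm36793 followed, with r from 0.76 to 0.80. For these, r over the 12 arrays ran from 0.12 for Eomes to 0.61 for Arhgef7. At 26 days none of these 10 genes passed the test in in vivo against in vitro MII, Adgre1 differing by 0.54 (limma adjusted p = 0.887).

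Other transcripts of the same cell types, of further cell types and of the families of the 10 were taken from 13 lists with 188 genes measured. In adult in vivo MII against GV oocytes, 14 of the 188 were higher, or 7.45%, and 4 were lower, or 2.13%. The shares over all 18193 genes were 10.7% higher and 8.24% lower, both above those of the lists. The order for higher calls depended on the scale: on the deposited intensities 3 of the 188 were higher, or 1.60%, against 0.066% of all genes, and with median scaling 8 were, or 4.26%, against 2.94%. Without adult in vivo replicate 1 they numbered 9 higher and 2 lower, and without either GV array 4 higher and 1 lower. None of the 188 was called in d26 in vivo against d26 in vitro MII (background 0.0275%), nor in the other comparisons (limma). An unadjusted p below 0.05 was found for 10 of the 188 at 26 days, or 5.32%, against 6.75% of all genes, and for 10 in d26 against d20 in vitro MII, against 10.4% of all genes. In adult in vivo MII it was found for 33 against GV oocytes, or 17.6%, where 29.9% of all genes had it. Against adult in vitro MII it was 21, or 11.2%, with 7.74% of all genes, and against d26 in vivo MII 11, or 5.85%, with 4.02% of all genes.

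In the macrophage and monocyte list 3 of 19 were higher than in GV oocytes. Adgre1 rose by 2.10 ± 0.58 (SE, limma adjusted p = 0.0208), and Mrc1, the mannose receptor, by 1.28 ± 0.38 (adjusted p = 0.0304). Mrc1 read 7.67 to 8.67 in adult in vivo arrays, against 8.44 and 8.57 in adult in vitro arrays, so the ranges overlapped. Cybb, the catalytic subunit of the phagocyte oxidase, named after its value was seen, rose by 4.50 ± 1.26 (adjusted p = 0.0214). It read 4.40 to 5.15 in adult in vivo arrays and 2.20 and -0.51 in d26 in vivo arrays, with 3.51 to 4.48 in d26 in vitro arrays, 3.87 to 4.36 in d20 in vitro arrays and 0.05 and 5.29 in adult in vitro arrays. The mean of the list over its 19 genes was 3.98 to 4.03 in adult in vivo arrays, 3.29 to 3.84 in d26 in vivo arrays and 2.99 to 3.78 elsewhere. Its summed normalized intensity was 628 to 917 in adult in vivo arrays and 332 to 780 in the in vitro and GV arrays, so the ranges overlapped.

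None of the 15 neutrophil genes passed against GV oocytes (limma, 0 with an unadjusted p below 0.05), with a median difference of 1.17. Their summed intensity was 199 to 296 in adult in vivo arrays, 162 to 222 in d26 in vivo arrays and 115 to 239 elsewhere. Their 3 highest genes in adult in vivo MII were Il1b, a cytokine, Fpr2, a receptor for formylated peptides, and Clec4d, a lectin receptor. Il1b read 5.0, 4.40 and 6.65 in adult in vivo arrays, against 4.46 and 4.17 in GV arrays. Fpr2 read 6.18, 3.44 and 4.96, against 3.64 and 3.66, and Clec4d read 4.72, 3.96 and 5.62, against 2.82 and 3.34. In vitro arrays reached 5.89 for Il1b, 4.50 for Fpr2 and 4.17 for Clec4d, so they overlapped with adult in vivo arrays. Of the 15, 8 had an adult in vivo mean under the median of all values. Named after their values were seen, Camp, a granule peptide, read 0.55 to 1.57 in adult in vivo arrays, and Itgam, the integrin CD11b, read -0.54 to 2.96, against 0.01 and -0.91 in GV arrays. Of the 14 leukocyte genes in common use, 1 passed, the granule proteoglycan Srgn, by 1.02 ± 0.26 (limma adjusted p = 0.0117). Srgn averaged 10.94 ± 0.27 in adult in vivo MII (SD, n = 3) and 11.25 ± 0.40 in adult in vitro MII (n = 2). Ptprc, the leukocyte antigen CD45, named after its value was seen, read 4.76, 3.60 and 3.77 in adult in vivo arrays. It read 0.71 and 2.53 in d26 in vivo arrays, and 3.62 and 3.05 in adult in vitro arrays. Its difference from GV oocytes, 2.87 ± 1.37 (SE), did not pass (limma adjusted p = 0.224). The median difference of the 14 was 1.47, and Hcls1 and Lcp1 went the other way, at -2.94 and -1.91, neither called. None of the 11 lymphocyte genes passed (0 with an unadjusted p below 0.05). The part of leukocytes in the levels of the 10 transcripts was not tested.

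Of 17 markers of secretory oviduct epithelium, 1 was higher and 1 lower than in GV oocytes. Cftr, a chloride channel, rose by 2.85 ± 0.44 (SE, limma adjusted p = 0.000256), and Plac8 fell by 1.00 on the log2 scale (adjusted p = 0.0198). Cftr averaged 8.17 ± 0.73 in adult in vivo MII (SD, n = 3), against 8.33 ± 0.02 in adult in vitro MII (n = 2). Pax8, the lineage factor of these cells, was named after its value was seen. It read 3.32, 4.32 and 4.25 in adult in vivo arrays, against 3.27 and 3.22 in GV arrays. Its in vitro arrays ran from -0.54 to 4.25, so they overlapped with the adult in vivo ones. None of 13 ciliated cell genes passed (0 with an unadjusted p below 0.05), and the mean of the 13 was 2.09 to 2.71 in adult in vivo arrays, against 2.19 to 3.04 in GV arrays. Their highest genes in adult in vivo MII averaged 6.08 ± 0.86 for Mlf1, 4.68 ± 0.61 for Tppp3 and 4.59 ± 0.02 for Lrrc23 (SD, n = 3), against 5.08 ± 0.06, 3.47 ± 0.39 and 3.94 ± 0.07 in GV oocytes (n = 2). Foxj1, their master regulator, named after its value was seen, read 0.95, 4.49 and 1.33 in adult in vivo arrays, against 3.40 and 2.31 in GV arrays. The summed intensity of the secretory list was 3328 to 3668 in adult in vivo arrays, 3134 to 3171 in d26 in vivo arrays and 5277 to 5672 in GV arrays, a sum led by Plac8. The mean log2 level of the list ran the other way, at 4.03 to 4.64 in adult in vivo arrays, 4.08 and 4.09 in d26 in vivo arrays and 3.46 to 3.92 in GV arrays, with 3.32 to 4.71 in the in vitro arrays. In the cumulus and granulosa list 1 of 19 was higher, Ptgs2, the prostaglandin synthase induced by the ovulatory signal, by 2.13 ± 0.52 (adjusted p = 0.00931), and it read 5.43 and 5.71 in adult in vitro arrays as well, against 5.32 to 6.14 in adult in vivo arrays.

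Relatives of the 10 were mixed. Against GV oocytes, 7 of 11 other S100 genes had an unadjusted p below 0.05 (limma), where 29.9% of all genes had it. So did 5 of 13 other cathepsins and inhibitors and 3 of 17 partners and family members. Of the 11 S100 genes 2 were called higher than in GV oocytes. S100a14 rose by 1.61 ± 0.51 (SE, limma adjusted p = 0.0442). S100a4, named after its value was seen, rose by 3.31 ± 1.07 (adjusted p = 0.0494). S100a14 averaged 6.45 ± 0.34 in adult in vivo MII (SD, n = 3) and 6.41 ± 0.28 in adult in vitro MII (n = 2), while S100a4 averaged 3.93 ± 0.98 and -0.22 ± 0.62 there. The mean of the 11 was 3.59 to 4.33 in adult in vivo arrays, 2.37 to 2.79 in d26 in vivo arrays and 1.98 to 2.98 in the in vitro and GV arrays. Of 13 other cathepsins and their inhibitors 1 was higher (Ctsa) and 3 lower (Ctsh and, named after their values were seen, the inhibitors Cst3 and Cstb). Ctsh fell by 1.96 (adjusted p = 0.000987). Of 17 partners and family members, Lyz1 and Sirpb1a were higher, and Sirpb1a, which signals through the Tyrobp adaptor, rose by 1.85 ± 0.42 (adjusted p = 0.00554). It averaged 8.80 ± 0.41 in adult in vivo MII (SD, n = 3), against 8.97 ± 0.62 in adult in vitro MII (n = 2).

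Outside these families, 2 of 8 mast cell and erythroid genes were called higher than in GV oocytes, where 10.7% of all genes were. They were the mast cell tryptase Tpsb2, by 3.48 ± 0.90 (SE, limma adjusted p = 0.0128), and the globin Hba-a1, by 4.67 ± 1.08 (adjusted p = 0.00602). The median difference of the 8 was -0.71. Cpa3, Mcpt4, Ms4a2, Alas2 and Slc4a1 differed by -1.22 to -0.71 and Fcer1a by 2.68, none of them called. Tpsb2 averaged 4.09 ± 0.73 in adult in vivo MII (SD, n = 3) and 4.81 ± 0.08 in adult in vitro MII (n = 2). Hba-a1 read 5.73, 4.13 and 4.22 in adult in vivo arrays and 4.10 and 4.41 in d26 in vivo arrays, against 0.26 and -0.21 in GV arrays. One d26 in vitro array reached 4.70, within the in vivo range. Of 14 stromal genes 1 was higher (Pdgfra, by 3.69 ± 0.83, adjusted p = 0.00488), with 4.79 ± 1.01 in adult in vivo MII (SD, n = 3) and 5.10 ± 0.05 in adult in vitro MII (n = 2). Of 17 acute phase and interferon genes none was (2 with an unadjusted p below 0.05).

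**Figure D5:**
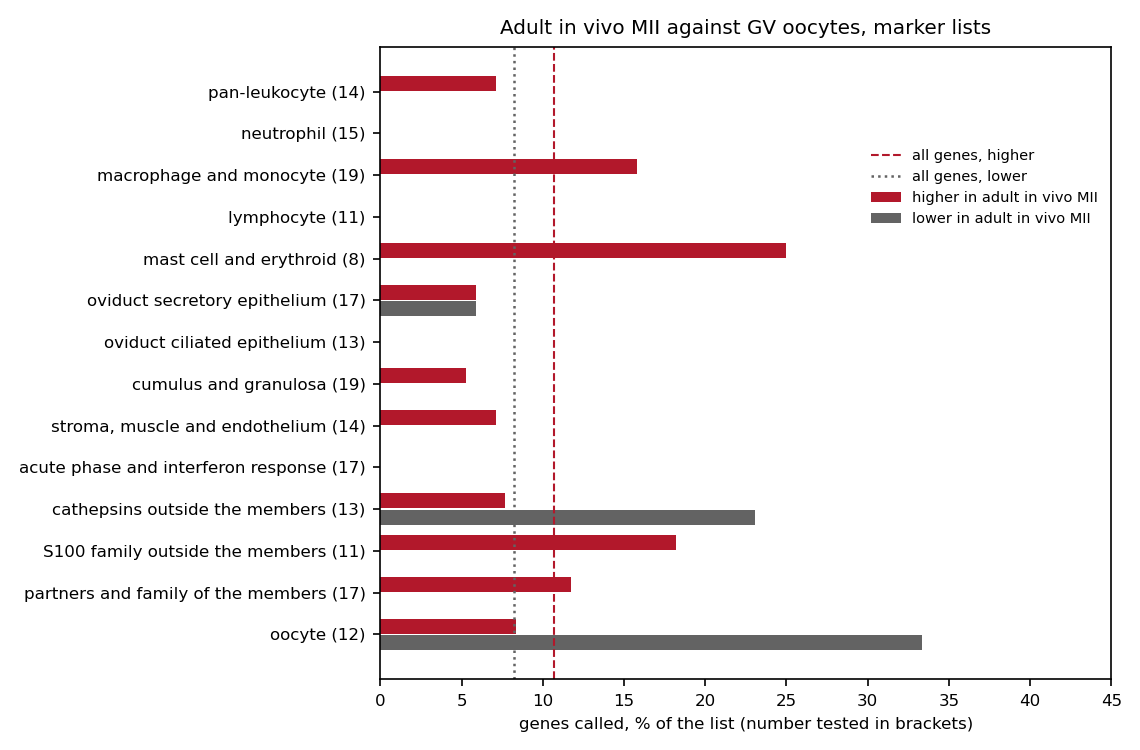
Share of each list's measured genes called higher or lower in adult in vivo MII against GV oocytes, in percent, with the number measured in brackets. The dashed line marks the 10.7% of all genes called higher and the dotted line the 8.24% called lower, and the 15 neutrophil genes have none called.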

How the data were processed

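The deposited values were intensities on a linear scale for 45101 probe sets on 15 Affymetrix arrays, made by the authors with MAS5 per the submitters' processing notes, with version and scaling target not given in the sources used here. No detection calls, scan dates or batches were used. After removal of 64 control probe sets, log2 values of 45037 were quantile normalized across arrays, since array medians ran from 5.08 to 25.3. No filter on low signal was applied in the tests, because a filter on the overall mean would keep transcripts through the group they were chosen for. Of the 10 transcripts, 6 lay in the upper 50% of probe sets and 1 in the upper 30%. limma 3.58.1 in R 4.3.3 fitted 6 group means with an intensity trend (9 residual degrees of freedom), with two-sided tests, Benjamini-Hochberg adjustment over all probe sets within a comparison and a threshold of 0.05.

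Symbols came from the platform annotation: 34945 probe sets had 1 symbol, 932 several and 9160 none. For lists, each gene was taken by its brightest probe set. The 10 transcripts, the lists and the motifs were chosen with earlier results of these data known. From each list the text names up to 3 genes with the highest adult in vivo mean, any gene called at 26 days and up to 4 called in adult in vivo against adult in vitro MII (neither occurred); defining markers at a low level and genes outside that rule were added after their values were seen. Genes most like the 10 were the 10 with the highest correlation among genes with an overall mean in the upper 50% of probe sets.

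No 2 arrays shared more than 0.00222% of their values. The number of arrays limits the precision: on simulated data for the d26 in vivo against in vitro comparison over 45037 probe sets, 0% of changes of 1 on the log2 scale, 11.9% of changes of 2 and 34.4% of changes of 4 were recovered. Alternatives covered normalization, filters, a pseudocount of 1.11, the variance trend, array weights, a block by the number in the sample titles, the arrays in the fit and leaving out each array.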

Additional observations from a re-analysis of the deposited data

How the results depend on the processing

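None of the 10 transcripts was called in either comparison tested under any alternative run. In d26 in vivo against d26 in vitro MII the lowest adjusted p over these alternatives was 0.321, for Saa3 (0.478 for Cd14), and the difference of Cd14 stayed between 2.03 and 3.31. Signs changed for Saa3, Tyrobp and S100a8: Saa3 to -0.12 and Tyrobp to -2.04 without the 4 dim arrays, Tyrobp to -1.07 with the title number as a block, and S100a8 to 0.03 on the deposited values. With single arrays left out, ranges crossed 0 for Ctsc (-0.33 to 1.87), S100a8 (-2.23 to 0.74), S100a9 (-0.93 to 2.82), Lyz2 (-1.44 to 1.47) and Tyrobp (-0.25 to 1.97). The arrays whose loss did so were d26 in vitro replicate 1 (Ctsc, S100a8, Lyz2), 2 (S100a8) and 3 (Tyrobp), and d26 in vivo replicate 1 (Ctsc, Lyz2) and 2 (S100a8, S100a9).

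Probe sets called at 26 days numbered 7, and 1 on deposited values, 26 with median scaling, 13 in the upper 30%, 0 without the variance trend, 18 with array weights, 1 with the title number as a block, 52 without the dim arrays, 0 in the compared arrays alone and 0 to 17 with 1 array left out (0 without either d26 in vivo array, 1 without d26 in vitro replicate 1 or 3, 17 without replicate 2, 14 without adult in vivo replicate 1, and 4 without d20 in vitro replicate 1 or 3 or either GV array). In d26 against d20 in vitro MII, 0 became 3 in the upper 30%, 5 with array weights, 1 with the block, 5 without the dim arrays and 0 to 7 with 1 array left out (7 without d26 in vitro replicate 1). In adult in vivo MII against GV oocytes, 5844 (3128 higher, 2716 lower) became 3886 on deposited values (30 higher, 3856 lower), 3652 without the trend, 9397 with weights and 2666 to 6613 with 1 array left out (2666 and 3130 without a GV array); median scaling split the calls into 913 higher and 4037 lower. In adult in vivo against adult in vitro MII, 1 became 0 with median scaling, in the upper 30%, with weights or with the block, 63 without the dim arrays, and 0 to 191 with 1 array left out (191 without adult in vitro replicate 1). In adult in vivo against d26 in vivo MII it was 0 to 2 with 1 array left out (2 without d26 in vivo replicate 2).

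Marker genes higher than in GV oocytes numbered 14, and 3 on deposited values, 8 with median scaling, 9 in the compared arrays alone and 4 to 15 with 1 array left out (9 without adult in vivo replicate 1, 4 without either GV array). Lower ones numbered 4, and 2 in the upper 30% or without the trend, 7 with weights and 1 to 5 with 1 array left out (2 without adult in vivo replicate 1, 1 without either GV array). Against adult in vitro MII, 0 higher became 1 on deposited values, with the pseudocount or in the compared arrays alone, 2 without the dim arrays and 0 to 1 with 1 array left out (1 without adult in vitro replicate 1). In counts added after the data were seen, transcripts of d26 in vivo replicate 1 above all in vitro and GV arrays numbered 5, and 3 on deposited values and 5 to 6 with 1 array left out; for replicate 2 they numbered 1, and 1 to 2 with 1 array left out (2 without adult in vitro replicate 1 or GV replicate 2). The causes of these shifts were not tested.

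Deposited values moved the median of all probe sets to 0.89 in d26 in vivo against d26 in vitro MII, -0.73 in adult in vivo MII against GV oocytes and 0.76 against adult in vitro MII. Relative to it, 7, 10 and 10 of the 10 transcripts were higher. The median SE at the level of these transcripts, 1.16, limits what can be called. No paired analysis was possible because the labels give the groups no shared replicate numbers.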
